A study of Mus musculus with 8 samples.

Results

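The spindle assembly checkpoint genes were followed in total and ribosome-bound mRNA of MII oocytes, the ovulated eggs that rest at metaphase of the second meiotic division. The set holds 9 genes (Mad2l1, Mad1l1, Bub1, Bub1b, Bub3, Ttk, Mad2l1bp, Trip13 and Zw10), each found by their symbol in the tables of ribosome-bound and total mRNA. Of these, 7 were among the 8898 genes of the ribosome-bound table and 8 were among the 10530 genes of the total mRNA table, and the same 7 were among the 8537 genes present in both. Bub3 was in neither table, and Trip13 was in the total mRNA table only.

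Oocytes came from RiboTagF/F;Zp3-Cre females on a C57BL/6 background, in which Zp3-Cre, a driver active in growing oocytes, switches the ribosomal protein Rpl22 to an HA-tagged form. Both ages carried these alleles and both were stimulated with 5 IU PMSG and, 48 h later, 10 IU hCG, with eggs collected 13 h after hCG. The young females were 1 month old and the old females were retired breeders of 12 to 15 months, so that age and breeding history cannot be told apart. Each age gave 2 pools of 200 oocytes, and each pool gave an HA library (mRNA recovered with the tagged ribosomes) and an input library (total mRNA from 10% of the same lysate), 8 libraries in all. Pooled oocytes from several animals make up each replicate, and nothing in the labels says which animals went into which pool.

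The checkpoint delays anaphase until every chromosome is attached to the spindle. At unattached kinetochores, the kinase Ttk (Mps1) phosphorylates the scaffold Knl1, which recruits Bub1 and Bub3, and Mad1l1 then holds Mad2l1 (MAD2) so that it changes shape and binds Cdc20. Mad2l1, Bub1b (BUBR1), Bub3 and Cdc20 form the mitotic checkpoint complex that inhibits the anaphase-promoting complex. Trip13, an ATPase, and its adaptor Mad2l1bp (p31comet) take that complex apart, and Zw10 belongs to the RZZ complex that brings Mad1l1 and dynein to kinetochores. Oocytes make these proteins largely from stored maternal mRNA, and ageing of the oocyte is known for errors of chromosome segregation.

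Values are CPM, the reads on a gene relative to the library size after the authors' TMM scaling, which was set separately for HA and input. Reads on listed genes numbered 37817382 to 59688578 in the HA libraries and 38276453 to 60052814 in the input libraries, and a floor of 3 reads stood at 0.0388 to 0.111 CPM in HA and at 0.0435 to 0.0788 CPM in input. These floors cover counting error only. All 8 oocyte markers (Zp1, Zp2, Zp3, Gdf9, Bmp15, Oosp1, Kit and Ddx4) were in both tables, with summed levels of 9185 to 15517 CPM in HA and of 7362 to 8612 CPM in input. Of 10 cumulus or granulosa markers, 3 were in the HA table (Amh, Foxl2, Has2, Inha, Inhba, Ptx3 and Tnfaip6 were not), with sums of 81.7 to 83.8 CPM in old and 156 to 182 CPM in young libraries. The highest marker of each library gave most of its sum, with 80.4 and 69.7 CPM in old and 142 and 174 CPM in young. In input 7 of the 10 were listed (without Amh, Foxl2 and Ptx3), with sums of 32.5 and 113 CPM in old and of 83.1 and 177 CPM in young pools. None of 5 oviduct, blood and immune markers was in either table. The part of these cells in the results below was not tested.

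Among the checkpoint mRNAs, Bub1b stood far above the others. Its mean of 4602 CPM in HA lay at the 99.9th percentile of the HA table, followed by Mad2l1 at 418 CPM (94.3rd percentile), Ttk at 366 CPM (93.5th) and Bub1 at 160 CPM (85.0th). Mad1l1 had a mean of 21.8 CPM (51.0th percentile), Zw10 of 13.7 CPM (42.4th) and Mad2l1bp of 2.36 CPM (10.5th). The core kinases and the inhibitor proteins were carried by abundant ribosome-bound mRNA, while the kinetochore anchor of Mad2l1, the RZZ subunit and the disassembly adaptor were carried by mRNA of middle or low abundance.

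Levels of different genes are comparable only per length. Per kb of joined exons, the mean HA level was 1077 CPM for Bub1b, 74.3 for Ttk, 49.9 for Mad2l1, 36.7 for Bub1, 5.96 for Mad1l1, 3.57 for Zw10 and 1.86 for Mad2l1bp. Dividing by the longest annotated transcript left all 7 in the same places. Over the 4 HA libraries, Bub1b (601 to 1429 CPM per kb) lay apart from all others, Ttk (51.4 to 96.6) overlapped Mad2l1 (29.7 to 77.1), and Mad2l1 overlapped Bub1 (25.2 to 43.6). The lower neighbours Mad1l1 (0.677 to 13.3), Zw10 (2.60 to 5.47) and Mad2l1bp (0.0291 to 3.83) overlapped in turn and lay below Bub1. In input the order per kb was Bub1b (323 CPM), Ttk (86.3), Bub1 (38.2), Mad2l1 (22.7), Zw10 (10.97), Mad1l1 (8.47), Mad2l1bp (2.54) and Trip13 (1.84). In input the ranges of the first 5 genes of this order did not overlap, and those of Zw10, Mad1l1, Mad2l1bp and Trip13 overlapped from neighbour to neighbour. The mean of Mad2l1 per kb thus stood above that of Bub1 in ribosome-bound mRNA, with overlapping libraries, and below it in total mRNA.

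**Figure D1:**
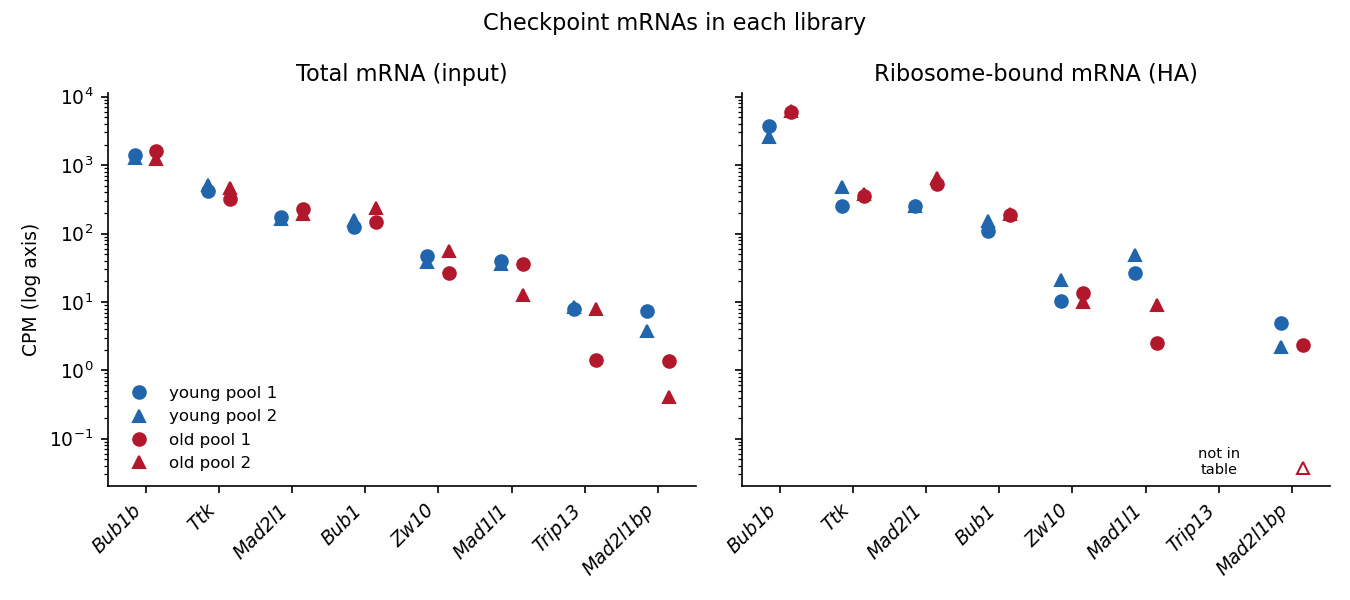
CPM of each checkpoint mRNA (log axis) in the 4 input libraries (left) and the 4 HA libraries (right), young pools in blue and old pools in red, with pool 1 as circles and pool 2 as triangles. In HA the 2 old pools lie above the 2 young pools for Bub1b, Mad2l1 and Bub1 and below them for Mad1l1, and the open triangle marks Mad2l1bp at 1 read, under the floor.

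The comparison of old with young HA libraries asks which mRNAs differ with age in their load on ribosomes. On the deposited scale, Mad2l1 and Bub1b of the inhibitory complex had more ribosome-bound mRNA in both old pools than in either young pool. The means differed by 2.35-fold and 1.90-fold. Against shares of reads on listed genes, TMM multiplied HA values by 1.12 and 1.40 in old and 0.771 and 0.831 in young. With the same sum per library or quantile normalization, both old values stayed above both young ones for Mad2l1 but not for Bub1b. Their complex partner Cdc20, added here after its values were seen, measured 35.6 and 92.3 CPM in old and 117 and 51.9 CPM in young HA libraries, which overlapped (log2 difference -0.43, 95% interval -2.40 to 1.54), and Bub3 was not analysed. Neither Mad2l1 nor Bub1b passed the test after adjustment over all genes, and no checkpoint gene did (0 of 7). In limma on log2(CPM + 1) with Benjamini-Hochberg adjustment, 0% of all HA genes (0 genes) passed at 0.05, and 1311 had an unadjusted p under 0.05. On the recovered reads, 0 genes passed with edgeR's quasi-likelihood test, 295 with its likelihood ratio test and 508 with DESeq2, with no checkpoint gene among them. At that unadjusted level, Mad2l1 and Bub1b were the 2 of 7 checkpoint genes higher in old, against 4.28% of all genes, and 0 of 7 were lower, against 10.5% of all genes. With the same sum per library, the limma p was 0.161 for Mad2l1, 0.325 for Bub1b and 0.0464 for Mad1l1, which was lower in old. Over all 8898 genes, 112 were then higher and 1283 lower at that level. With quantile normalization the limma p was 0.199 for Mad2l1, 0.106 for Bub1b and 0.116 for Mad1l1.

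Mad2l1, the protein that binds and blocks Cdc20, measured 526 and 647 CPM in the old HA libraries and 251 and 250 CPM in the young ones. The young pools were nearly equal and both old pools lay above them. The log2 difference was 1.22 (SE 0.41, 95% interval 0.25 to 2.19), with a limma p of 0.0210 and an adjusted p of 0.297, where the median of all genes was -0.14. The direction was kept with each pool left out in turn (1.07 to 1.37), and the difference was 0.58 both after setting each library to the same sum and after quantile normalization.

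Bub1b, the subunit of the same complex that also steadies kinetochore attachments, measured 5957 and 6107 CPM in old and 3773 and 2571 CPM in young HA libraries. Here the old pools were close to each other and the young pools were apart, without overlap between the ages on the deposited scale. The log2 difference was 0.95 (SE 0.34, 95% interval 0.15 to 1.75; limma p 0.0263, adjusted p 0.304). It was 0.68 to 1.23 with each pool left out in turn, 0.31 with the same sum per library and 0.49 with quantile normalization.

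For the kinase Bub1, which marks centromeric chromatin and recruits Bub1b, the old HA libraries gave 189 and 190 CPM and the young ones 110 and 150 CPM. Both old values were above both young values as deposited, with a log2 difference of 0.56 (limma, adjusted p = 0.753), but the difference was -0.08 with the same sum per library and -0.02 with quantile normalization. Ttk, the kinase that starts checkpoint signalling, gave 353 and 381 CPM in old and 253 and 475 CPM in young HA libraries. The young pair enclosed the old pair, and the log2 difference of 0.08 (95% interval -1.05 to 1.22) turned to -0.56 with the same sum and -0.54 with quantile normalization.

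Mad1l1, which tethers Mad2l1 at the kinetochore, went the other way in HA. It measured 2.47 and 9.09 CPM (104 and 246 reads) in old and 26.9 and 48.6 CPM (2080 and 2757 reads) in young HA libraries. Both old values were below both young values, and the old pools differed from each other by more than the young ones in proportion. The log2 difference was -2.65 (SE 1.40, 95% interval -5.98 to 0.68), and the adjusted p in limma was 0.463. The direction was kept with each pool left out, between -3.42 and -1.88.

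Zw10, which helps to place Mad1l1 at kinetochores, and Mad2l1bp, which opens the Mad2l1 complex, were the least abundant. Zw10 measured 13.7 and 9.94 CPM in old and 10.1 and 20.9 CPM in young HA libraries, which overlapped (log2 difference -0.30, 95% interval -3.56 to 2.95, and 0.14 with quantile normalization). Mad2l1bp measured 2.33 CPM (98 reads) and 0.0370 CPM (1 read, under the floor) in old and 4.87 CPM (377 reads) and 2.22 CPM (126 reads) in young HA libraries. One old library lay within the young range and the other had nearly no reads, with a log2 difference of -1.23 (95% interval -3.48 to 1.03).

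Counted by overlap, both old HA values exceeded both young values for 3 of 7 checkpoint genes (Bub1, Bub1b and Mad2l1), against 17.2% of all genes, and lay below them for 1 of 7 (Mad1l1), against 24.7%. With quantile normalization the counts were 1 (Mad2l1) and 2 (Mad1l1 and Ttk), against 16.7% and 21.7% of all genes. With the same sum per library they were 1 (Mad2l1) and 4 (Mad1l1, Mad2l1bp, Ttk and Zw10), against 7.51% and 35.7% of all genes. Mad2l1 above and Mad1l1 below were thus without overlap under all 3 scalings. The median log2 HA difference of the 7 genes was 0.08, beside -0.14 for all genes.

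The HA difference moved with abundance over the whole table, and checkpoint genes followed that pattern in part. When all HA genes were put in 10 groups by mean CPM, the median log2 difference went from -0.97 in the lowest decile to 0.61 in the highest. Bub1b, Mad2l1 and Ttk belonged to the highest decile, where Mad2l1 lay at the 82.2nd percentile of the differences, Bub1b at the 69.9th and Ttk at the 17.98th. Bub1, in decile 9 with a median of 0.42, lay at the 55.6th percentile of its decile. Mad1l1, in decile 6 with a median of -0.27, lay at the 6.63rd percentile. The part of this abundance pattern in each gene's difference was not tested.

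**Figure D2:**
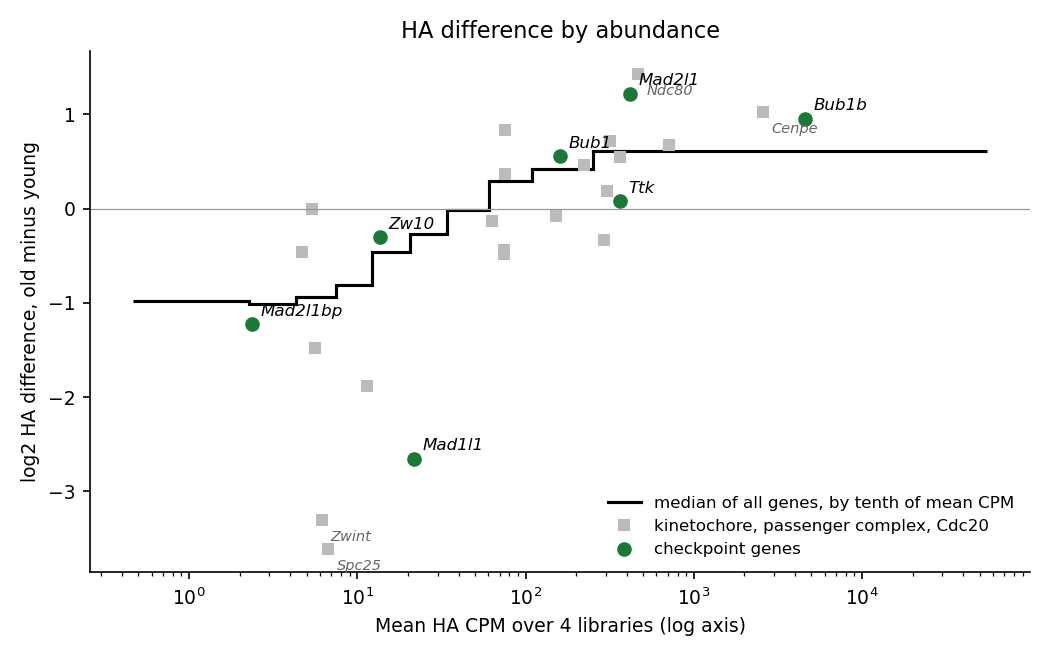
Log2 HA difference, old minus young, against mean HA CPM (log axis) for the 7 checkpoint genes (green), the 20 listed kinetochore, passenger complex and target genes (grey), and the median of all genes in each decile of abundance (black steps). The medians climb from -0.97 to 0.61 with abundance, Bub1b and Mad2l1 sit above their decile's median and Mad1l1 sits below it.

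A ratio of reads within a library does not depend on the scaling between libraries. Mad2l1 reads came to 8.84% and 10.6% of Bub1b reads in the old HA libraries and to 6.64% and 9.71% in the young ones, so that the ages overlapped. Bub1 came to 3.18% and 3.11% of Bub1b reads in old and 2.91% and 5.84% in young, which also overlapped. Ttk came to 5.93% and 6.24% in old and to 6.70% and 18.5% in young. Mad1l1 came to 0.0415% and 0.149% in old and to 0.713% and 1.89% in young. Relative to Bub1b, then, both Ttk and Mad1l1 were lower in both old HA libraries than in either young one, Ttk by a narrow margin. Mad2l1 and Bub1 were not separated by age. Bub1b itself had a log2 HA difference of 0.95, beside a median of -0.14 for all genes. The share of all genes that were lower relative to Bub1b was not counted.

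Total mRNA was compared between the ages in the same way, and whether input and HA differed in this respect was tested gene by gene as TE. None of 8 checkpoint genes passed the adjusted test in input, where 0.0095% of all genes (1 gene) did. At an unadjusted p under 0.05, 0 of 8 checkpoint genes were higher and 0 of 8 were lower in old, against 2.71% and 3.48% of all genes. Old and young did not overlap, with old higher, for 1 of 8 (Mad2l1), against 16.4% of all genes, and with old lower for 2 of 8 (Mad2l1bp and Trip13), against 18.9%. The median log2 difference of the 8 genes was -0.19, beside -0.03 for all genes.

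Mad2l1 input measured 229 and 194 CPM in old and 173 and 166 CPM in young pools, a log2 difference of 0.32 (95% interval -0.35 to 0.98; limma, adjusted p = 0.906). Its old values were above the young ones by a narrow margin, and overlapped them after quantile normalization or with the same sum. Bub1b input measured 1613 and 1233 CPM in old and 1388 and 1291 CPM in young pools. The old pair enclosed the young pair, and the log2 difference of 0.08 (95% interval -0.45 to 0.60) was -0.11 with the same sum and -0.09 with quantile normalization.

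Bub1 input gave 147 and 238 CPM in old and 125 and 157 CPM in young pools, and Ttk input gave 316 and 466 CPM in old and 412 and 504 CPM in young pools, and in each case the ages overlapped. The log2 differences were 0.42 and -0.25. Mad1l1 input measured 36.2 and 12.6 CPM in old and 39.0 and 35.9 CPM in young pools, so that old pool 1 was at the young level and old pool 2 was below it. The log2 difference of -0.78 (95% interval -2.36 to 0.81) was -0.05 without old pool 2.

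Among the low genes in input, Zw10 measured 26.4 and 56.1 CPM in old and 47.5 and 38.0 CPM in young pools, which overlapped (log2 difference -0.14). Mad2l1bp measured 1.38 and 0.401 CPM (75 and 20 reads) in old and 7.36 and 3.78 CPM (507 and 144 reads) in young pools, lower in both old pools, with a log2 difference of -1.79 (95% interval -3.90 to 0.31; limma, adjusted p = 0.782). Trip13, the ATPase that works with Mad2l1bp, measured 1.43 and 7.82 CPM in old and 7.94 and 8.36 CPM in young pools. Old pool 2 was next to the young values and old pool 1 was apart, and the log2 difference of -0.98 (adjusted p 0.927 in limma) was -0.05 without old pool 1.

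The translation efficiency (TE) of a gene in a pool was its HA CPM divided by its input CPM. Because the tables were scaled separately, a TE of 1 has no absolute meaning, and the median TE of all genes was 0.687 and 0.572 in the old pools and 0.729 and 0.724 in the young pools. Bub1b had TE values of 3.69 and 4.95 in old and 2.72 and 1.99 in young pools, which lay at the 92.0th and 93.3rd percentiles of the old pools and the 96.5th and 88.1st of the young pools. Its TE was thus higher in both old pools, while its rank among all genes of a pool overlapped between the ages. Mad2l1 had TE values of 2.30 and 3.34 in old and 1.45 and 1.51 in young pools, at the 84.3rd and 88.2nd percentiles in old and the 82.2nd and 80.2nd in young. For Mad2l1 both the TE and its rank were higher in both old pools.

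On the log2(CPM + 1) scale the TE difference was 0.90 for Mad2l1 (95% interval -0.86 to 2.66; limma, adjusted p = 0.832) and 0.88 for Bub1b (-0.99 to 2.74; adjusted p = 0.848), beside a median of -0.10 for all genes. With the same sum per library the differences were 0.45 and 0.43, and with quantile normalization 0.39 and 0.58. Both intervals on the deposited scale held 0, so that no difference in TE between the ages was detectable for them with 2 pools per age. None of 7 checkpoint genes passed the adjusted test, as did none of all 8537 genes in limma (0%), with 560 at an unadjusted p under 0.05. The recovered reads gave 0 genes with the quasi-likelihood test, 212 with the likelihood ratio test and 370 with DESeq2, again without a checkpoint gene. At that unadjusted level 0 of 7 were higher and 0 of 7 were lower in old, against 2.33% and 4.23% of all genes.

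Among the kinases, Bub1 had a TE above the pool's median in every pool, at the 54.6th to 69.0th percentile. The TE of Ttk was below the median in young pool 1 (38.9th percentile) and above it in the other pools (55.3rd to 64.4th). Bub1 had TE values of 1.29 and 0.798 in old and 0.882 and 0.959 in young pools, and Ttk had 1.12 and 0.818 in old and 0.614 and 0.942 in young pools. Both genes overlapped between the ages, with log2 differences of 0.14 and 0.33, which were -0.31 and -0.12 with the same sum per library and -0.30 and -0.16 with quantile normalization. Mad1l1 had TE values of 0.0683 and 0.724 in old and 0.689 and 1.35 in young pools (log2 difference -1.88, 95% interval -5.36 to 1.61). Old pool 1 alone stood apart, and without it the difference was -0.38.

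Zw10 had the lowest mean TE in the group in young pools, with 0.520 and 0.177 in old and 0.214 and 0.550 in young pools (log2 difference -0.16, and 0.37 with quantile normalization). Mad2l1bp had 1.69 and 0.0921 in old, the second value resting on 1 HA read, and 0.662 and 0.587 in young pools. Those plain ratios overlapped, although on the log2(CPM + 1) scale both old values were above both young values. On that scale, 3 of 7 checkpoint genes had both old TE values above both young values (Bub1b, Mad2l1 and Mad2l1bp), against 17.2% of all genes, and 0 of 7 had both below, against 20.4%. The median log2 TE difference of the 7 was 0.33.

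**Figure D3:**
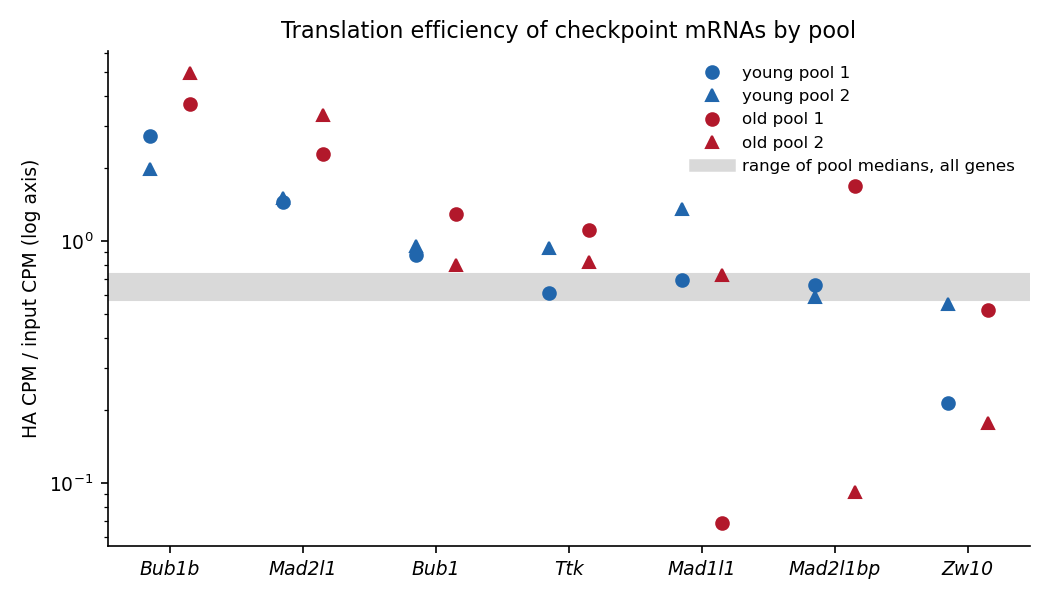
HA CPM over input CPM (log axis) of 7 checkpoint mRNAs in each pool, young in blue and old in red, with the range of the 4 pools' medians over all genes as a grey band. Bub1b (1.99 to 4.95) and Mad2l1 (1.45 to 3.34) lie above the band in every pool, with both old pools above both young pools.

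**Figure D4:**
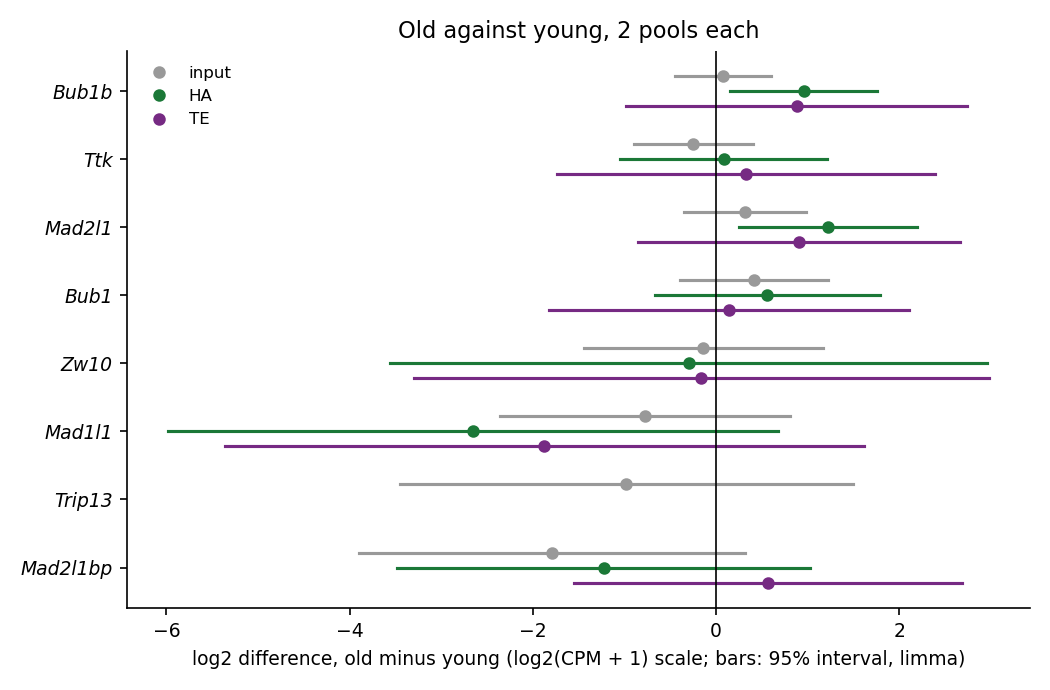
Log2 difference, old minus young, of input (grey), HA (green) and TE (purple) for each checkpoint gene, with 95% intervals from limma over 2 pools per age. Only the HA intervals of Bub1b (0.15 to 1.75) and Mad2l1 (0.25 to 2.19) leave out 0 on the deposited scale before adjustment, and Trip13 has an input value alone. With the same sum per library, not drawn, the HA intervals of Bub1b (-0.40 to 1.02) and Mad2l1 (-0.30 to 1.47) hold 0. That of Mad1l1 (-6.41 to -0.07) then leaves it out.

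The 3′-UTRs were examined because stored oocyte mRNAs are recruited to ribosomes through the cytoplasmic polyadenylation element (CPE), which binds CPEB1 and acts together with the polyadenylation hexamer near the 3′ end. The letters searched were TTTTAT and TTTTAAT for the CPE and AATAAA and ATTAAA for the hexamer, on the sense strand of the longest annotated 3′-UTR (GENCODE M21, GRCm38). A CPE was present in 3 of the 7 checkpoint genes of the HA table (Bub1b, Ttk and Mad2l1), against 70.5% of the 8192 genes of that table with an annotated 3′-UTR, whose median length was 1326.5 bases. Trip13 and Bub3, which are not in the HA table, also had CPEs. The UTRs of Bub1 (121 bases), Mad2l1bp (385 bases), Mad1l1 (427 bases) and Zw10 (453 bases) held none of these CPE letters, and that of Zw10 held neither hexamer.

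The sites of the abundant genes are shown because they differ in how close the CPE lies to the hexamer and to the annotated 3′ end. Each is printed 5′ to 3′ in lower case, with the CPE in capitals.
Bub1b, chr2:118641554-118641583, plus strand, 27 bases from the 3′ end: ttcactgtgtaTTTTATaataaaatagttt
Bub1b, chr2:118641522-118641551, plus strand, 59 bases from the 3′ end: ctcttttgtaaTTTTATaacatgtactctc
Ttk, chr9:83872271-83872300, plus strand, 108 bases from the 3′ end: ttgtgcttttcTTTTATgcttttctgtaaa
Mad2l1, chr6:66540962-66540991, plus strand, 12 bases from the 3′ end of the shorter annotated UTR: tgtaataaagaactcttaTTTTAATgtttt
In Bub1b, whose 3′-UTR is 272 bases long, the last CPE ran directly into the hexamer aataaa, with 6 bases between their first letters. In Ttk (321 bases) the last CPE began 79 bases before the last hexamer. In Mad2l1 the shorter of 2 annotated UTRs (1048 bases) had its 1 CPE after the hexamer, 12 bases from the end, while the longer (6802 bases) had 12 CPEs, the last of them 487 bases from the end.

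A CPE beginning within 100 bases of the 3′ end of the longest UTR was found in 21.6% of those 8192 genes, and among the 9 checkpoint genes in Bub1b alone. Trip13 (1897 bases) had 4 CPEs, the last 299 bases from the end, and the longest UTR of Bub3 (2439 bases) had 5. Which 3′ end the oocyte mRNAs used was not measured, and a match is a description of the letters only. Bub1b and Mad2l1 had the 2 highest TE values of the group in every pool. Ttk, with 2 CPEs, had a TE near that of Bub1, which had none. Whether the number or place of CPEs goes with TE was not tested.

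**Figure D5:**
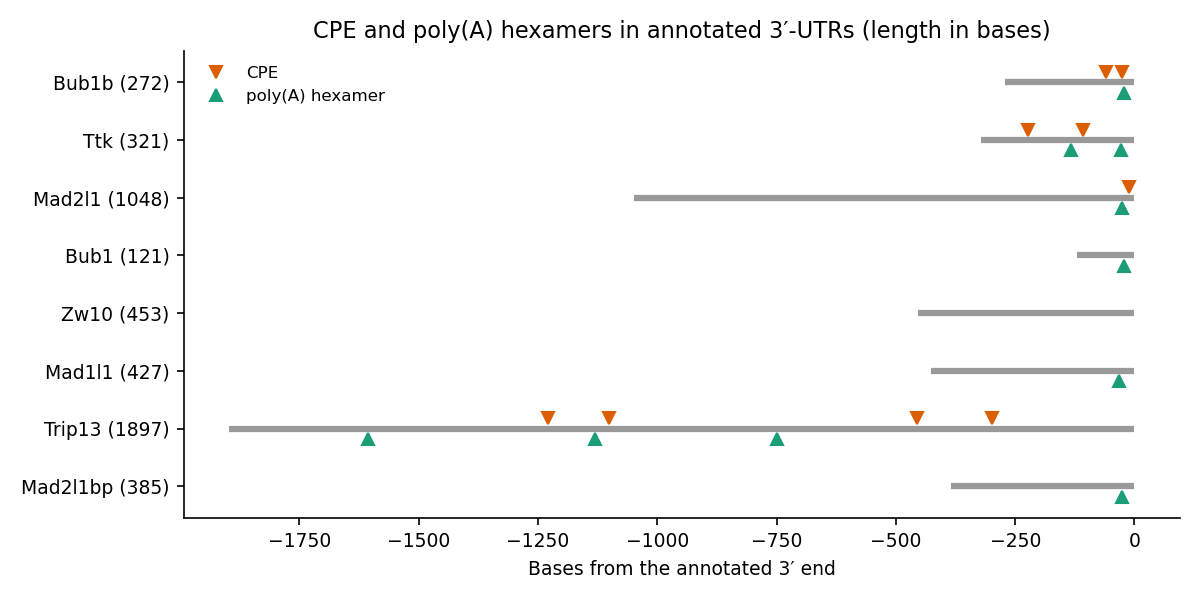
Annotated 3′-UTRs of 8 checkpoint genes drawn to scale as bases from the 3′ end, with CPEs as orange and polyadenylation hexamers as green triangles. The longest UTR is drawn for each gene except Mad2l1, for which the shorter of the 2 is drawn. CPEs close to the 3′ end are seen in Bub1b and in that Mad2l1 UTR. In the longer Mad2l1 UTR, which is not drawn, the last CPE lies 487 bases from the end.

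The genes lie on separate chromosomes for the most part. In GRCm38, Bub1b spans chr2:118598211-118641591, Bub1 chr2:127801122-127831865, Mad2l1 chr6:66535390-66547220, Ttk chr9:83834689-83872389 and Zw10 chr9:49055613-49078775. Mad1l1 spans chr5:140008689-140321552, Mad2l1bp chr17:46147387-46153553 and Trip13 chr13:73911347-73937784. Reads were counted over the whole gene without strand, introns included. Bub3, at chr7:131560222-131571895, has all 11674 bases of its span inside that of Fgfr2 on the opposite strand in GENCODE M21. The authors counted with another release, M11, which was not used here, and the part of this overlap in the absence of Bub3 was not tested.

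The wider checkpoint pathway was described with 21 other genes, 15 of the kinetochore, 5 of the chromosomal passenger complex and the target Cdc20, of which 20 were in each table (Nsl1 was not, and Knl1 was listed under its older symbol Casc5). In HA, 0 of 20 passed the adjusted test, 6 had both old values above both young values (Aurkc, Birc5, Cdca8, Cenpe, Dsn1 and Ndc80) and 5 had both below (Aurkb, Nuf2, Spc25, Zwilch and Zwint), beside the 17.2% and 24.7% of all genes given above. At an unadjusted p under 0.05, 1 of 20 was higher (Ndc80), against 4.28% of all genes, and 2 of 20 were lower (Spc25 and Zwint), against 10.5%, so that both counts were near the background. The median log2 HA difference of the 20 was -0.04, beside -0.14 for all genes.

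The 4 subunits of the NDC80 complex, which binds microtubules at the kinetochore, had log2 HA differences of 1.42 (Ndc80), -0.34 (Nuf2), -0.0077 (Spc24) and -3.61 (Spc25). Ndc80 measured 441 and 947 CPM in old and 216 and 267 CPM in young HA libraries, with both old pools above the young and a log2 difference of 1.42 (limma, adjusted p = 0.304). The difference was 1.97 without old pool 1 (adjusted p 0.0363 in limma) and 0.87 without old pool 2 (adjusted p 0.324), and in both fits the 1 old library left was assumed to vary like the young ones. Spc25 measured 0.190 and 0.148 CPM in old (8 and 4 reads) and 14.4 and 12.2 CPM in young HA libraries (1112 and 692 reads), a log2 difference of -3.61 (adjusted p = 0.297 in limma). Both old HA libraries were near the floor, although its input was 15.9 and 43.8 CPM in old and 17.95 and 7.31 CPM in young pools. The log2 TE difference of Spc25 was -4.74, with a limma p of 0.0108 and an adjusted p of 0.724. Its adjusted p for TE was 0.0175 with edgeR's likelihood ratio test and 0.000318 with DESeq2. At an unadjusted limma p under 0.05 for TE, Spc25 was the 1 of 20 partner genes lower in old, against 4.23% of all genes. Of the 20, 0 were higher, against 2.33%.

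Zwint, which links Knl1 to the RZZ complex of Zw10, measured 0.0713 CPM (3 reads) and 0.333 CPM (9 reads) in old and 17.95 and 6.33 CPM in young HA libraries. Both old values were near the floor, with a log2 difference of -3.30 (limma, adjusted p = 0.297). With DESeq2 on the recovered reads, Spc25 and Zwint passed the adjusted threshold in HA, and no checkpoint gene did. Cenpe, the kinetochore motor that activates Bub1b, measured 2175 and 4809 CPM in old and 1169 and 2151 CPM in young HA libraries. Its lower old value was just above the higher young value, with a log2 difference of 1.03 (limma, adjusted p = 0.416). It ranged from 0.46 without old pool 2 to 1.60 without old pool 1, and was 0.39 with the same sum and 0.29 with quantile normalization.

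The genes whose pattern over the 8 libraries was nearest to that of Bub1b were Nfe2l1, Osbpl9 and Oas1d, out of 5305 genes with a mean of at least 10 CPM in both tables. Likeness was the Euclidean distance on log2(CPM + 1) centred within each table, and it was 0.25, 0.28 and 0.31 for the 3 genes. Nfe2l1, for example, measured 337 and 360 CPM in old and 205 and 150 CPM in young HA libraries, with both old values above both young values.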

How the data were processed

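The deposited signal values are CPM. Per the labels and the study's methods, the authors trimmed single-end reads (Trimmomatic 0.36), aligned them with HISAT2 to GRCm38/mm10, counted them per gene with HTSeq (GENCODE annotation, introns included, no strand) and scaled them by TMM with edgeR, separately for HA and input. cDNA was amplified, with no molecular identifiers. A filter of 10 CPM in 2 samples is stated, whereas 5642 of 8898 HA genes and 6775 of 10530 input genes reached it. All values (100%) were whole multiples of 1 read (tolerance 0.01 read), so that reads were recovered.

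Old and young were compared with limma 3.58.1 (lmFit, eBayes with trend) on log2(CPM + 1), two-sided, and p-values were adjusted by Benjamini-Hochberg over the whole table. This scale understates changes of low genes. TE was tested as the difference of the log2 values per pool. With 2 pools per age an exact permutation test cannot go below a two-sided p of 0.333. p-values measure the spread between pools. The stated study test, edgeR's likelihood ratio, was an alternative (edgeR 4.0.16), beside its quasi-likelihood test, DESeq2 1.42.0, other pseudocounts (0.1 and 5), filters, scalings and pools left out. Tests were tested on simulated data.

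The checkpoint genes and all lists were chosen with earlier results of these data known. Named in full were the 9 checkpoint genes, the 2 partner genes with the smallest p in HA in each direction, and the 3 genes nearest to the checkpoint gene with the highest HA level. Exon lengths, spans and 3′-UTRs came from GENCODE M21, which held 8875 of the 8898 HA gene identifiers. R 4.3.3, Python 3.11.15, numpy 2.4.6, pandas 2.3.3 and matplotlib 3.10.9 were used.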

Additional observations from a re-analysis of the deposited data

How the results depend on the processing

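No checkpoint gene had an adjusted p under 0.05 in HA, input or TE under any alternative run, and the smallest was 0.106 (Mad2l1 HA without old pool 1). Over the whole tables, 0 HA genes passed in limma, against 508 with DESeq2, 295 with edgeR's likelihood ratio test, 9 with the replicate block (r of the deviations of same-numbered old and young pools 0.0786 in HA and 0.0269 in input, so that they share no more than a number) and 0 to 634 with a pool left out. For input the count of 1 became 114, 50 and, with the quasi-likelihood test, 0, and was 0 to 2 with a pool left out. For TE, 0 became 370 with DESeq2 and 212 with the likelihood ratio test. The partner list had 2 calls in HA with DESeq2, 0 to 1 with a pool left out, and 1 in TE with DESeq2 and with the likelihood ratio test. The replicate block, which matched old and young pools by number, changed no call of a checkpoint gene. The deviations of same-numbered old and young pools had an r of 0.0786 in HA and 0.0269 in input. HA and input of the same pool, from the same lysate, had an r of 0.0060 in old and 0.107 in young. Such an r thus cannot tell whether same-numbered pools share more than a number.

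Under other scalings, for which these counts were added after seeing the data, the count of checkpoint genes with old above young went from 3 to 1 in HA and from 1 to 0 in input with either quantile normalization or the same sum, and the count below young went from 1 to 2 and 4 in HA and from 2 to 3 and 4 in input. The all-gene shares moved too, with the same sum from 17.2% to 7.51% above and 24.7% to 35.7% below in HA, and from 16.4% to 11.1% above and 18.9% to 24.7% below in input. With quantile normalization they were 16.7% and 21.7% in HA and 16.5% and 18.6% in input. The all-gene median HA difference was -0.14 as deposited, -0.68 with the same sum, -0.05 with quantile normalization and 0.33 with DESeq2. Signs turned with the same sum and with quantile normalization for HA Bub1 (-0.079, -0.016), HA Ttk (-0.56, -0.54), input Bub1b (-0.11, -0.085), input Cenpe (-0.16, -0.12), TE Bub1 (-0.31, -0.30) and TE Ttk (-0.12, -0.16), and with quantile normalization for Zw10 in HA (0.14) and TE (0.37). Input Cenpe was -0.011 with DESeq2 and -0.027 with both edgeR tests. The causes were not tested.

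With a pool left out, signs turned within these ranges: HA Ttk -0.37 to 0.54, HA Zw10 -0.79 to 0.19, input Bub1b -0.12 to 0.27, input Ttk -0.53 to 0.031, input Zw10 -0.67 to 0.39, input Cenpe -0.40 to 0.46, input Zwint -1.73 to 0.22, TE Bub1 -0.20 to 0.49, TE Zw10 -0.91 to 0.58 and TE Ndc80 -0.19 to 1.57. Of 447 values of checkpoint and named partner genes under alternatives, 30 changed sign and 5 came to pass the threshold, all 5 of them partner genes. Leaving a pool out leaves 1 library of that age, assumed to vary like the others. Some old values rest on few reads. These were Mad2l1bp (1 read in 1 HA library, 75 and 20 reads in input) and Trip13 (78 reads in 1 input library). Others were Mad1l1 (104 reads in 1 HA library), Spc25 (8 and 4 reads in HA) and Zwint (3 and 9 reads in HA). The part of depth in the spread between pools was not tested.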
